A study of Drosophila melanogaster with 3 samples.

Results

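The genes described here encode 10 core proteins of the Polycomb group of Drosophila melanogaster, and the measurement is where the boundary protein BEAF-32 sat at their starts. The genes are Pc, ph-p, ph-d, Psc, Sce, E(z), Su(z)12, esc, Pcl and pho, listed by symbol, and all 10 were found among the 13945 protein-coding genes annotated on 6 chromosome arms. The data were 3 biological replicates of a single group. Each was a chromatin immunoprecipitation and sequencing library from whole embryos aged 0 to 14 hours, with both sexes pooled. The embryos came from a transgenic line, BEAF-32-GFP, that stably expresses BEAF-32 with green fluorescent protein fused at its C terminus, and all 3 libraries carry the same transgene. An anti-GFP antibody was used for the precipitation according to the sample descriptions, while the antibody field of the labels names BEAF-32. Neither the promoter that drives the fusion nor the state of the endogenous gene is stated in the labels. A whole embryo mixes tissues and stages, so a signal is an average over all its cells.

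Polycomb group proteins keep developmental genes such as the Hox genes silent by acting on chromatin. Pc, the paralogs ph-p and ph-d, Psc and Sce encode subunits of Polycomb repressive complex 1 (PRC1), which binds trimethylated histone H3 lysine 27 through Pc and ubiquitinates histone H2A through Sce. E(z), the methyltransferase that writes the H3 mark, works in Polycomb repressive complex 2 (PRC2) with Su(z)12 and esc, and Pcl is an accessory subunit of that complex. pho encodes a sequence-specific DNA-binding protein that helps bring these complexes to Polycomb response elements. BEAF-32 is a DNA-binding protein found at chromatin boundaries and at many promoters, and CGATA is the string it is known to recognise.

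A gene was called bound when a summit of the authors' combined list lay within 500 bp of any of its annotated starts. That list, thresholded by the authors on the irreproducible discovery rate (IDR), holds 6070 summits. It is exactly the strongest 6070 summits of the list made from the pooled replicates. The signal of a summit is the authors' own value on an unstated scale. It serves here only to order summits within a list, with rank 1 the strongest. Signals in the IDR list ran from 139 to 22477 with a median of 579. No read totals accompanied the lists, and the depth behind a summit is therefore unknown.

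The bases around the summits are shown for 6 genes. All lines are the + strand of the dm6 reference genome, 5′ to 3′, with CGATA and the core promoter string GGTCACACT in capitals wherever either strand carries them. Each long line covers the part of the window of 100 bp to each side of the summit that lies outside annotated exons, and each short line shows a site that falls inside a transcribed region. Pc is shown because it had the strongest summit of the 10 and pho because it was next, both with CGATA. The lines of esc and Su(z)12 show summits of middle rank without that string. Sce had the weakest summit, and ph-d, shown upstream of its outermost start, had none. The lines lie at chr3L:21318021-21318173 and chr3L:21317981-21318005 (Pc), chr4:1181800-1182000 (pho), chr2L:11829406-11829544 (esc), chr3L:19923463-19923625 (Su(z)12), chr3R:27682030-27682159 and chr3R:27681990-27682014 (Sce) and chrX:2123287-2123386 (ph-d).
Pc: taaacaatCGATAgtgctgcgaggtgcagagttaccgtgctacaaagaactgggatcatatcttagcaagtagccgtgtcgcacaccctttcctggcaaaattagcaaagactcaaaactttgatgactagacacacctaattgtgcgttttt
Pc, second CGATA site: ctgcgtacgtCGATAgtcgtccgac
pho: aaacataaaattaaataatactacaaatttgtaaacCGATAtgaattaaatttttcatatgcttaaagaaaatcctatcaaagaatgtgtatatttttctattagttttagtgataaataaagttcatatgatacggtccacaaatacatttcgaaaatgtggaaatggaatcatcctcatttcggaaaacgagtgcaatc
esc: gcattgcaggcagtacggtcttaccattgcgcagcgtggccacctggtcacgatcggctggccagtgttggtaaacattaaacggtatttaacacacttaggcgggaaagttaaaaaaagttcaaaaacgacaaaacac
Su(z)12: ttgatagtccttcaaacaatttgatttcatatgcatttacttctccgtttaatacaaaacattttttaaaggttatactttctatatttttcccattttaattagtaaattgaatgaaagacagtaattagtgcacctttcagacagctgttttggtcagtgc
Sce: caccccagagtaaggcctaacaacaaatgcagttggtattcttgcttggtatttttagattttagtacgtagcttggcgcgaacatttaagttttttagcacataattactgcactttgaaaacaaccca
Sce, GGTCACACT site: tagcttgaAGTGTGACCgcactttg
ph-d: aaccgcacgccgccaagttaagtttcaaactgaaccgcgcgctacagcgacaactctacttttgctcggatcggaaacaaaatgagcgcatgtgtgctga

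At 8 of the 10 genes an IDR summit lay within 500 bp of a start, and the same was true of 43.7% of all coding genes. The bound genes were Pc, ph-p and Sce of the 5 PRC1 genes, all 4 of the PRC2 genes E(z), Su(z)12, esc and Pcl, and pho. The unbound genes were ph-d and Psc. Most of these summits were weaker than the median summit of the IDR list, 579, and some lay near its end. The median signal at the 8 bound genes was 497, with a lowest value of 147 and a highest of 5961, against a median of 1096 over the 6092 bound coding genes. The stronger 3035 summits of the IDR list held 3 of the 8 summits (37.5%) and 65.3% of those at all bound coding genes. At the other end, 2 of the 8 (25%) ranked below 5000, against 7.50% of all bound coding genes.

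**Figure D1:**
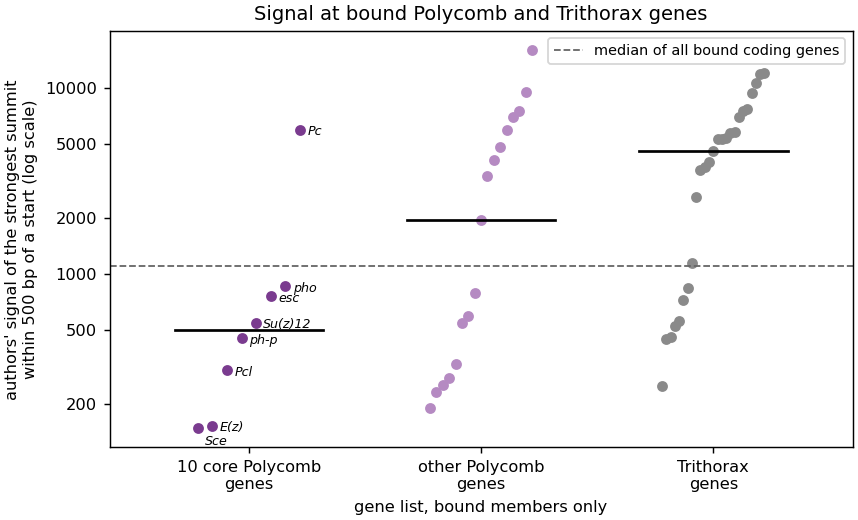
Signal of the strongest IDR summit within 500 bp of a start (authors' scale, log axis) for each bound gene of 3 lists, with 1 point per gene, a black bar at the median of each list and a dashed line at the median of all bound coding genes, 1096. Pc stands alone at 5961 among the 10 core genes, and the other 7 bound core genes lie below the dashed line.

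The libraries taken singly held fewer of these genes. When the 6070 strongest summits of each replicate were used alone, 6 of the 10 genes were bound in replicate 1 (42.9% of all coding genes), 4 in replicate 2 (39.5%) and 5 in replicate 3 (42.2%), a mean of 5 ± 1 (SD, n = 3). The count of 8 was thus not reached in any single library. Pc, Su(z)12, esc and pho were bound in each replicate alone, Pcl in replicates 1 and 3, and E(z) in replicate 1. Pairs of replicates both held 38.9% to 41.3% of all coding genes, and the share held by all 3 was not counted. Neither Sce nor ph-p was bound in any replicate alone, for different reasons that are given with each gene. When both remaining replicates had to hold the gene, 4 were bound without replicate 1 (38.9% of coding genes), 5 without replicate 2 (41.3%) and 4 without replicate 3 (38.9%).

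Other distances and lists moved the count between 3 and 9. With summits within 250 bp it was 6 (39.4% of coding genes), as pho and ph-p dropped out, and with 1000 bp it stayed at 8 (46.3%). From the outermost start alone it was also 8 (42.2%). In the stronger 3035 summits of the IDR list it was 3, namely Pc, esc and pho (28.5%). In the pooled relaxed list, which runs to much weaker summits, it was 9, with ph-d added (59.7%). A rule chosen after seeing the data asked that the IDR summit lie inside one of the 6070 strongest regions of every replicate. It kept 5 genes, Pc, ph-p, Su(z)12, esc and pho (38.5% of coding genes). Pc and esc were bound under all 12 of these alternatives, Su(z)12 and pho under 11, and Psc under none.

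Pc, whose chromodomain protein reads trimethylated H3 lysine 27, carried by far the strongest summit of the 10. The region on 3L (21317552 to 21318540) had a signal of 5961 and rank 531 of 6070, and its summit at 21318073 lay 53 bp upstream of the only start, outside any annotated gene. In replicates 1, 2 and 3 its signals were 2546, 1382 and 2129, and its ranks 393, 744 and 593. The summit was high in every library, and the replicate summits were at most 5 bp from the combined one. The nearest other IDR summits lay 13426 bp to the left and 17171 bp to the right of the Pc start. Rab26, which encodes a small GTPase of vesicle traffic, starts head to head 754 bp away. The summit lay between both starts but 701 bp from that of Rab26, which had no IDR summit of its own within 500 bp.

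ph-p and ph-d are neighbouring paralogs on the X that encode the Polyhomeotic proteins, and 2923 bp separate them. ph-p had 3 annotated starts and 3 IDR summits within the gene, with signals of 449 (rank 3501), 212 (rank 5068) and 160 (rank 5727). The strongest (2137165 to 2137622, summit 2137347) lay in an intron of ph-p, 492 bp upstream of an internal start. The second lay 379 bp downstream of the outermost start. In replicates 1, 2 and 3 the summit matching the strongest one had signals of 170, 92.8 and 199 and ranks of 3512, 5284 and 3363, lowest in replicate 2. These replicate summits were 524, 535 and 514 bp from the internal start. They therefore fell just outside the limit of 500 bp, and ph-p was not called in any replicate alone although each library held the summit among its strongest 6070. The strongest summits that did lie within 500 bp of a ph-p start ranked 6989, 14224 and 8061 in replicates 1, 2 and 3.

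ph-d had no IDR summit within 500 bp of either of its 2 starts, and the nearest was 12004 bp away, the weakest of those inside ph-p. The pooled relaxed list held a summit of signal 80.3 at rank 7665, 261 bp from a start, below the lowest signal of the IDR list. The strongest summits within 500 bp in replicates 1, 2 and 3 ranked 8637, 10328 and 7285, against 6989, 14224 and 8061 at ph-p by the same rule. At ph-d the summit of replicate 1 lay near the outermost start. Those of replicates 2 and 3 and of the pooled list lay near the internal start, where replicate 1 had a summit at rank 9491. All 3 libraries thus had summits at the starts of ph-d, and all placed them beyond rank 6070. csw, the gene of the Corkscrew tyrosine phosphatase, ends 25 bp from the end of ph-d and was itself bound at its own distant start with a signal of 740.

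**Figure D2:**
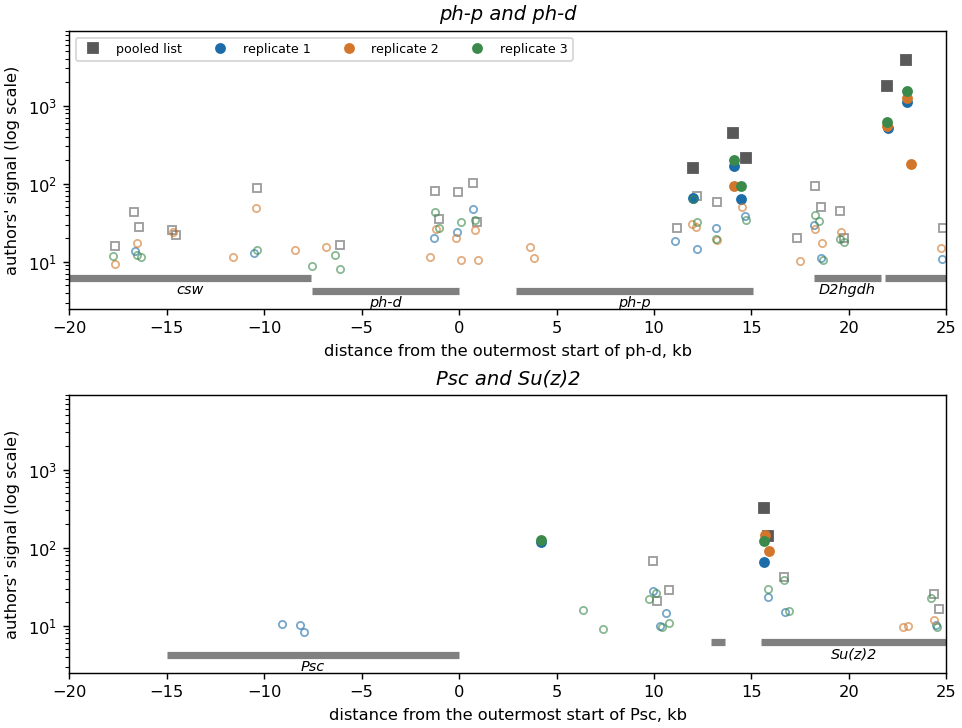
Summits around ph-p and ph-d (top) and around Psc and Su(z)2 (bottom) by distance from the outermost start of ph-d or Psc in kb, with the authors' signal on a log axis. Squares are the pooled list and circles the replicates, filled where the summit ranks within the strongest 6070 of its list and hollow where it does not, and grey bars are genes. The 3 filled squares inside ph-p are at 449, 212 and 160, only hollow symbols lie at ph-d, and Psc has no symbol at its start.

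Psc, a PRC1 subunit, was the only gene of the 10 without a summit within 500 bp of a start in any of the 5 lists. The nearest IDR summit lay 15653 bp away at Su(z)2, the paralog beside it, with a signal of 325 at rank 4143. Su(z)2 ranked 5585, 4106 and 4434 in replicates 1, 2 and 3 and was bound in each alone. Replicates 1 and 3 had summits of 119 and 124, at ranks 4252 and 4408, 4219 and 4187 bp upstream of Psc. Both lay between Psc and the next coding gene. In replicate 2 the nearest summit to Psc was the one at Su(z)2, 15700 bp away, and in the pooled list the nearest was 9951 bp away. The coding genes on either side of Psc, CG13321 and CG33798, were unbound as well. Of its 2 starts, the internal one had 2 copies of CGATA within 200 bp, so the string was present at a start with no summit.

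Sce encodes the RING finger subunit of PRC1 that acts as the histone H2A ubiquitin ligase. Its summit, 30 bp upstream of the only start and outside genes (3R, 27681817 to 27682300), had a signal of 147 at rank 5919, near the end of the IDR list. In replicates 1, 2 and 3 the signals were 45.9, 51.4 and 52.4 and the ranks 6475, 7098 and 6681. The ranks were close to each other and all lay beyond 6070, so the call rests on the pooled data. The window of the summit had no CGATA and 1 copy of GGTCACACT, which lies within the Sce transcript and is the site printed above. CG12883, which lies 94 bp past the end of Sce, was bound with a signal of 188, and CG31055 on the other side was unbound. l(3)73Ah, which encodes another RING finger protein of the Polycomb group, had a signal of 16017 at rank 10 and ranks of 9, 15 and 11 in the replicates.

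E(z), the H3 lysine 27 methyltransferase, also had a summit near the end of the list. It lay on 3L (10637959 to 10638203), 55 bp downstream of the outermost start in the 5′ untranslated region, with a signal of 152 at rank 5828. Signals in replicates 1, 2 and 3 were 76.3, 30.7 and 50.8, and ranks were 5215, 9207 and 6770. Replicate 1 alone placed it within its strongest 6070, and replicate 2 placed it lowest. The start of Cnep1r2 lies head to head only 16 bp from that of E(z) and 71 bp from the summit, so both genes were called from a single weak summit. hay, the gene on the other side, had a stronger one at 619.

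Su(z)12 encodes a subunit that the PRC2 methyltransferase needs for its activity. Its summit (3L, 19923181 to 19923784) had a signal of 546 at rank 3145 and lay 63 bp upstream of its only start. Signals were 209, 165 and 205 and ranks 3128, 3771 and 3307 in replicates 1, 2 and 3, within the strongest 6070 in each. Pfdn6, a subunit of the prefoldin chaperone, starts head to head 209 bp away, and the summit lay between both starts, 146 bp from that of Pfdn6. The shared summit cannot be given to either gene. On the other side Rpn1, a proteasome subunit gene, had a signal of 1842. A further IDR summit of 155 at rank 5783 lay 1403 bp upstream of the Su(z)12 start.

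esc encodes the WD40 repeat subunit of PRC2 and had the third strongest summit of the 10. It lay on 2L (11829218 to 11829656), 39 bp upstream of the only start and within an intron of Pde1c, with a signal of 756 at rank 2655. Signals were 293, 204 and 264 and ranks 2649, 3292 and 2886 in replicates 1, 2 and 3, a narrow spread. No coding gene started head to head within 2000 bp. The summit stood at the edge of a long stretch without IDR summits, since the next one to the right was 158693 bp away. Of the 6064 gaps between neighbouring IDR summits, 140 were at least as long, and the median gap was 5280 bp. escl, the paralog of esc, had no IDR summit. Its pooled summit of 133 at rank 6203 lay just outside the IDR list, with ranks of 6870, 7869 and 7024 in the replicates.

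Pcl, the Polycomblike subunit that joins PRC2, had its summit 4 bp upstream of its only start, the closest of the 10, on 2R (18135070 to 18135541). The signal was 303 at rank 4276. Replicate signals were 103, 60.6 and 113 and ranks 4570, 6555 and 4646, so replicate 2 fell below its strongest 6070. Hsf, the gene of the heat shock transcription factor, starts head to head 792 bp away and had a separate IDR summit of 234 at rank 4836. pAbp, the poly(A)-binding protein gene that lies 87 bp past the end of Pcl, had a much stronger summit of 5978.

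pho, on the small chromosome 4, had a summit 272 bp upstream of its only start and outside genes (1181526 to 1182208), with a signal of 856 at rank 2498. Signals were 365, 188 and 324 and ranks 2379, 3489 and 2560 in replicates 1, 2 and 3, again lowest in replicate 2. A second IDR summit of 365 at rank 3884 lay 1384 bp upstream of the start. On the side of the gene's end no IDR summit lay nearer than 33448 bp from the start, and neither flanking coding gene, Kif3C or CG33521, was bound. phol, the paralog that encodes a related DNA-binding protein, was bound at a similar level, with a signal of 789 at rank 2599 and ranks of 2740, 2700 and 2878 in the replicates.

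By mean rank over the replicates (SD, n = 3) the order was Pc at 577 ± 176, pho at 2809 ± 596, esc at 2942 ± 325, Su(z)12 at 3402 ± 332, ph-p at 4053 ± 1069, Pcl at 5257 ± 1125, Sce at 6751 ± 317 and E(z) at 7064 ± 2012. Only Pc and pho had rank ranges that did not overlap among the 7 neighbouring pairs. The order from pho to E(z) is therefore not resolved step by step. Replicate 2 gave the lowest placing of every one of the 8 genes. How often it did so over all IDR summits was not counted. Of the other Polycomb genes given above, Su(z)2 (4106) and phol (2700) had their best rank in replicate 2. escl (7869) and l(3)73Ah (15) had their worst there. Without replicate 2, E(z) came before Sce. In that case 6 of 7 neighbouring pairs had separate ranges, against 3 without replicate 1 and 1 without replicate 3.

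**Figure D3:**
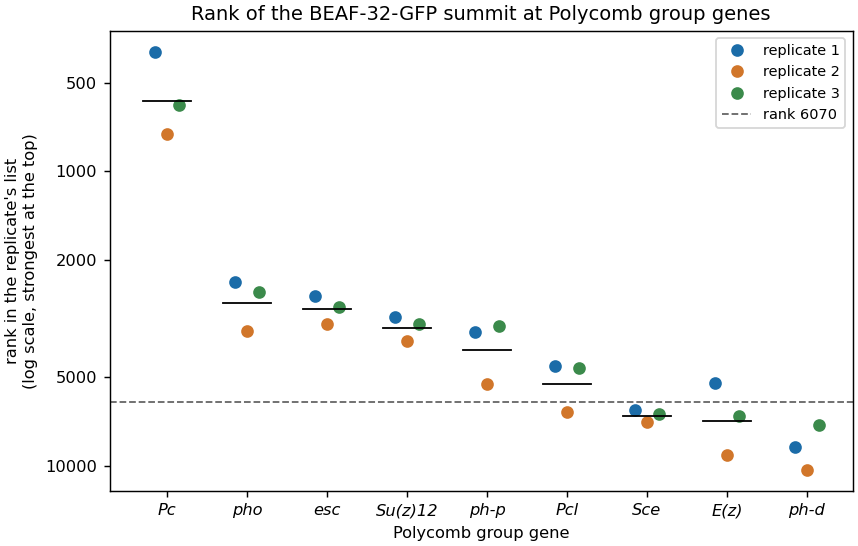
Rank of the summit at each gene in the list of each replicate (log axis, strongest at the top), with 1 point per replicate, a bar at the mean for the 8 bound genes and a dashed line at rank 6070. Pc lies between 393 and 744 and apart from all others, and Sce lies beyond the line in 3 of 3 replicates. For the 8 bound genes the summit matched to the IDR summit is drawn. For ph-d it is the strongest summit within 500 bp of a start, so its points are not ranked by the same rule as those of ph-p.

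For the 3 strongest genes, the summit at another coding start with the most similar ranks was found as the smallest sum of absolute log2 differences over the 3 replicates. For Pc it was at Incenp, a chromosomal passenger complex gene, with ranks of 391, 769 and 587 and a sum of 0.07. For pho it was at RhoBTB (sum 0.05), and for esc at nuf (sum 0.02).

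A coding gene started head to head within 1000 bp of 4 of the 8 bound genes, Pc, E(z), Su(z)12 and Pcl, against 58.6% of all bound coding genes. With 500 bp the count was 2 (48.3%), and with 2000 bp it stayed at 4 (64.8%). The 4 cases differed in where the summit lay. At Su(z)12 it was between starts 209 bp apart, at E(z) it was just past starts 16 bp apart, and at Pc and Pcl it was close to the Polycomb gene and over 500 bp from the partner. A partner thus shares the summit within 500 bp at 2 of the 4.

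**Figure D4:**
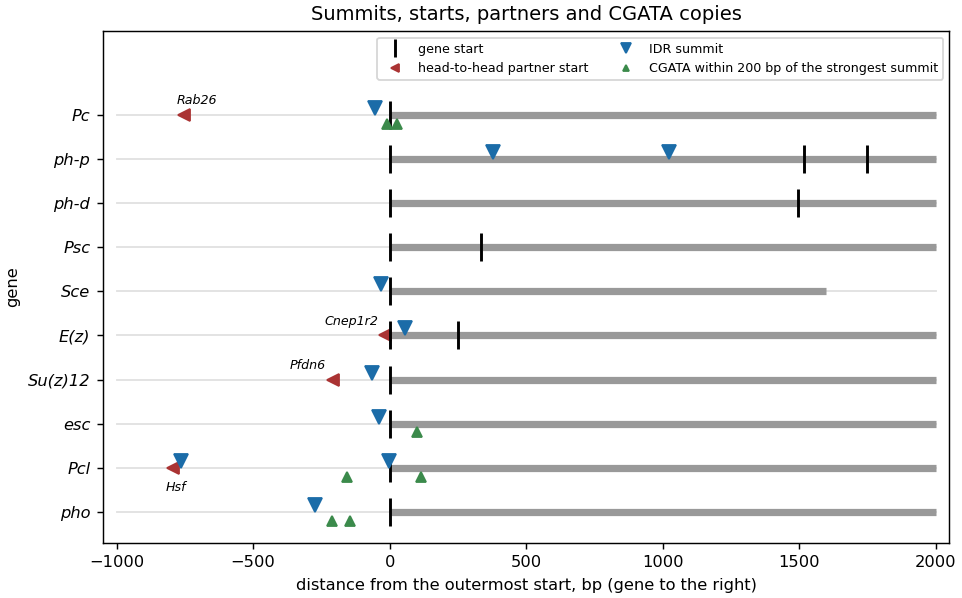
Position of IDR summits (blue), annotated starts (black ticks), head-to-head partner starts (red) and CGATA copies within 200 bp of the strongest summit (green) at the 10 genes, by distance from the outermost start in bp with the gene body to the right. Summits lie within 63 bp of the start at Pc, Sce, E(z), Su(z)12, esc and Pcl and farther out at ph-p and pho, while ph-d and Psc have none. The summit near Hsf in the row of Pcl is that of Hsf. The summits 1384 bp upstream of pho and 1403 bp upstream of Su(z)12 and the third of ph-p lie outside the plotted range.

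Only 2 of the 8 summits had CGATA within 100 bp, against 59.6% of the 5214 IDR summits at coding starts. Pc had 2 copies, both to the left of the summit in the lines above, 1 just upstream of the start and 1 inside the transcript. pho had 1 copy, centred 62 bp from the summit. The string was at 34.7% of start summits in the weaker 3035 of the list, which held 5 of the 8, and at 80% of those in the stronger 3035, which held 3. Within 50 bp the count was 1, Pc (46.4% of start summits), and within 200 bp it was 4, with esc and Pcl added (71.6%). Around the matching summits of replicates 1, 2 and 3 the count within 100 bp was 3, 3 and 2, with Pcl added in replicates 1 and 2. The share of all start summits was not counted at replicate summits.

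Signal over all start summits was higher where more copies stood, from a median of 354 where CGATA was missing and 642 at 1 copy to 1777 at 2, 3241 at 3 and 3980 at 4 or more copies. Both strands were counted, so a single TATCGATA counts as 2 copies. Against summits with the same number of copies, Pc was stronger than 86.2% and pho than 58.1%. Of the genes without CGATA, esc was stronger than 80.2% of its class, Su(z)12 than 70.6% and ph-p than 61.7%. Pcl was stronger than 42.1%, E(z) than 4.94% and Sce than 2.99%. The weak signals of E(z) and Sce were thus low even among summits that lack the string.

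**Figure D5:**
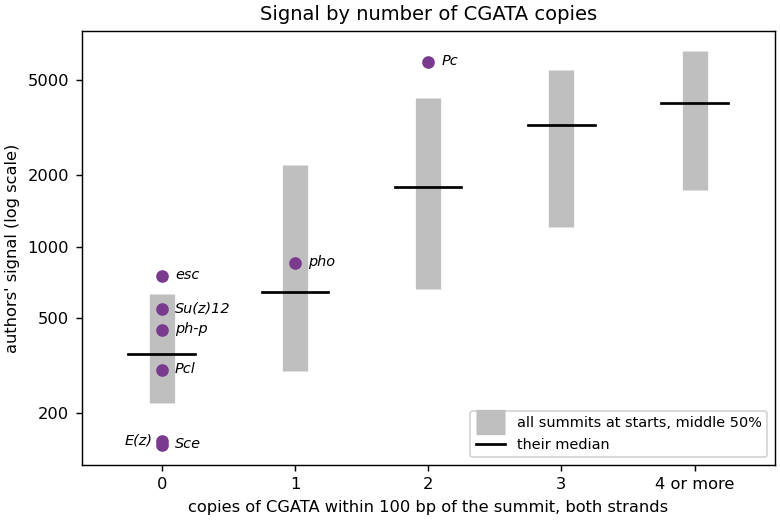
Signal of IDR summits at coding starts (authors' scale, log axis) by the number of CGATA copies within 100 bp, with grey bars for the middle 50% of summits, black bars for medians and points for the 8 bound genes. Of the 6 genes with 0 copies, esc, Su(z)12 and ph-p lie above the class median of 354 and Pcl, E(z) and Sce below it.

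Other promoter strings were searched on both strands within 100 bp of the same summits. TATCGATA, the element bound by Dref, which holds CGATA within it, was at none of the 8 and at 17.8% of the start summits. GGTCACACT was at Sce and Pcl, 2 of 8, and at 9.49% of the start summits. The copy at Pcl covered the start itself, with its first base 1 bp from the summit. GAGAG, the string of GAGA factor, was at 1 of 8, E(z), against 15.4%, and GCCAT, the core of the string bound by Pho itself, at 1 of 8, Pcl, against 28.7%. These are matches of letters in a window and not measured sites, and a window without a match says only that these letters are not in it.

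A chosen list of other Polycomb group genes had a higher median signal than the 10 core genes. Several of its bound genes, down to Kdm2 at 190, lay below the core median of 497. Of 19 such genes 17 were bound (89.5%), against 43.7% of all coding genes. Their median signal was 1946, against 1096 over all bound coding genes. The stronger 3035 of the list held 11 of the 17 (64.7%), close to the 65.3% of all bound coding genes. In the replicates alone the count was 16 ± 1 (SD, n = 3), where 39.5% to 42.9% of all coding genes were bound. After l(3)73Ah, the highest were Asx, a subunit of the Polycomb deubiquitinase (9541), RYBP, a PRC1-associated protein (7538), mxc (7025), Scm, which encodes a PRC1-associated protein (5917), lolal (4810), E(Pc) (4088), Caf1-55, the histone chaperone shared with PRC2 (3347), and Sfmbt, the partner of Pho (1946). Lower signals were found at phol, Jarid2 (591), sxc (544), Su(z)2, jing (273), caly (253), which encodes the catalytic partner of Asx, crm (233) and Kdm2 (190). escl and corto had no IDR summit, and corto had summits within 500 bp of its start only in replicate 2 and the pooled list, at ranks 13954 and 22462. CGATA was near 12 of the 17 summits (70.6%), counted within 100 bp, against 59.6% of all start summits.

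Trithorax group genes, whose products counteract Polycomb silencing, were bound in 25 of 27 cases (92.6%), against 43.7% of all coding genes. Their median signal was 4592, against 1096 over all bound coding genes. The stronger 3035 of the list held 20 of the 25 (80%), against 65.3% of all bound coding genes. In the replicates alone the count was 25 ± 1 (SD, n = 3), beside the same 39.5% to 42.9% of all coding genes. The highest were osa, a subunit of the Brahma remodelling complex (12064), fs(1)h, a BET family protein gene (11972), and kis, a chromodomain helicase gene (10601). Set1 and tna were unbound in the IDR list. Set1 was bound in replicate 1 alone, and both were bound in the pooled relaxed list, as were 59.7% of all coding genes. CGATA was at 19 of the 25 summits (76%), against 59.6% of all start summits and 80% of those in the stronger 3035. trx itself, the founding member, had a signal of 527 at rank 3213, close to that of Su(z)12. The 3 lists were set side by side as a description, and the difference between them was not tested. In each list some genes have a close head-to-head partner start, for example 69 bp away at Bap55, 37 bp at phol and 16 bp at E(z). Signals of summits shared in this way were not set apart.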

How the data were processed

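The labels put all 3 libraries into a single group and number the replicates. Per the README text deposited with the samples, the authors made a relaxed peak list from the dm6 alignment of each replicate, another from the pooled alignments, with a control alignment behind each, and thresholded them by IDR. The aligner and the caller were not given in the sources at hand. Each peak's signal, deposited by the authors on an unstated scale, was used as it stood. The −log10 q-value deposited by the authors was 4.24 at every IDR peak and was not used for ranking. The relaxed lists held 30000 summits (pooled), 26497, 30000 and 30000 (replicates 1, 2 and 3), and no line was identical between replicates. The dm3 lists, control and signal tracks were not used here.

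Genes and starts are those of Ensembl (BDGP6.54, release 115), while bases were read from the RefSeq copy of the same assembly, dm6. The symbols caly and Kdm5 were matched through synonyms after the peak lists were opened. A replicate summit was matched to an IDR summit within 200 bp. Named genes were the 10 genes, coding genes near their starts or beside unbound ones, and all genes on the list of other Polycomb genes. Also named were the Trithorax genes of highest signal and the unbound ones, and summits of most similar rank. The flanking genes of bound members (CG12883, CG31055, hay, Rpn1, pAbp, Pde1c, Kif3C and CG33521) and trx fall outside that rule and were chosen after their values were seen. The genes, lists and alternatives were chosen with earlier results of these data known, so no test was made and no p is given. The calling and counting steps were tried on simulated summits and strings and on a made-up set of genes for the pairs, and recovered what was planted. No planted summit lay close to the limit of 500 bp. Summits planted at internal starts and a choice among several summits were not tried. The software was Python 3.11.15 with numpy 2.4.6, pandas 2.3.3 and matplotlib 3.10.9.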

Additional observations from a re-analysis of the deposited data

How the results depend on the processing

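The count of the 10 genes bound, 8 in the combined list, became 3 in the stronger 3035 summits of that list, 4 in replicate 2 alone, 5 in replicate 3 alone, 4 to 5 when each replicate was left out, and 5 under the rule added after seeing the data. The count of other Polycomb genes fell from 17 to 11 in the same 3035, where the share of all coding genes fell from 43.7% to 28.5%. The median signal of bound genes, 497, became 424 with the nearest summit, with 250 bp and with the outermost start alone. Neighbouring pairs with separate rank ranges, 1 of 7, numbered 1 to 6 when each replicate was left out, and the order of Sce and E(z) turned without replicate 2. Partners within 500 bp numbered 2 and not 4. CGATA within 50 and 200 bp gave 1 and 4 summits and not 2. At ph-p the signal of 449 became 212 with the nearest summit or the outermost start. The other counts stayed within 1.5 times of their main count, and the other signal values were the same as the main ones. No paired analysis was possible because all libraries belong to a single group. Depth was unknown, so no counting error could be set on a summit.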
